A study of Mus musculus with 18 samples.

Results

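The cytosolic ribosomal protein genes were followed through the loss of TRIM28 (also called KAP1), a corepressor recruited to chromatin by zinc finger proteins, which draws in the enzymes that lay down the repressive mark H3K9me3. The genes were chosen by symbol, not by their values: every symbol made of Rps or Rpl and a number, with Rplp0, Rplp1, Rplp2 and Rpsa, in both expression tables, without the Rps6k kinases and without dashed names. This gave 78 of 17795 symbols. All but Rpl3l reached 1 RPKM (read density per length of transcript, adjusted for library size) in at least 1 library of each cell type, so 77 were measured in each.

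Each ribosome holds a single copy of nearly every ribosomal protein, so the small-subunit proteins (Rps) and large-subunit proteins (Rpl) are made in matched amounts. Their messages begin with a run of pyrimidines, the TOP motif, through which mTOR signalling and LARP1 control their translation, and transcription factors such as MYC and GABP bind many of their promoters. Embryonic stem (ES) cells divide fast and keep ribosomal protein messages among their most abundant. A few genes have a second, often retrotransposed copy that is used in particular tissues, such as the germline-associated Rpl39l and the muscle gene Rpl3l.

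RNA came from ES3 cells, an ES cell line of strain C57BL/6 grown in serum with LIF, and from C57BL/6 mouse embryonic fibroblasts (MEFs). Wild-type ES3 cells were taken after 4 days of culture, and knockout ES3 cells 4 days after 4-OHT was given to switch on an inducible CRE. Wild-type MEFs were taken after 5 days of culture, and knockout MEFs 5 days after 4-OHT. Duplicates were pooled before extraction, so each condition is 1 library, no spread or test can be had, and every difference below compares 2 libraries. The labels do not say whether wild-type cells carried CRE or received 4-OHT. Lists of H3K9me3 regions and KAP1 peaks came from wild-type and knockout ES3 cells.

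Trim28 checked the labels, with 1051 RPKM in wild-type against 37.2 RPKM in knockout ES3 cells, and 62.8 against 5.84 RPKM in MEFs. All 8 ES cell markers were above 1 RPKM in both ES3 libraries and all 8 fibroblast markers in both MEF libraries. The summed level of the ES cell markers was 2488 RPKM in wild-type and 1282 RPKM in knockout ES3 cells. The 8 primitive endoderm markers summed to 70.4 and 1606 RPKM in the same libraries, with 4 and 8 of them at 1 RPKM or more and none at 0. In such bulk RNA, fewer cells of a type and less RNA per cell cannot be told apart, and the part of this shift in the ES3 ratios below was not tested. In MEFs the 8 fibroblast markers summed to 8514 and 7845 RPKM, with a median log2 ratio of -0.31 and 6 of the 8 below 0. The lowest ratios were those of periostin Postn (421 and 142 RPKM, -1.56) and fibronectin Fn1 (1711 and 613 RPKM, -1.48). The 2 above 0 were Vim (2824 and 4035 RPKM, 0.51) and Thy1 (589 and 700 RPKM, 0.25). After rescaling to equal sums 7 of the 8 were below 0. The part of these in the MEF ratios was not tested.

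Some deposited symbols do not name the transcript they stand on. The row called Rpl10l is the transcript NM_052835, which RefSeq gives to Rpl10 itself, and the row called Rpl10 is NR_002899, the snoRNA Snora70. Rps4y2 is NR_003634, a noncoding transcript of Rps4l. Rps19bp1 matches the pattern but encodes a protein that binds Rps19 and is no part of the ribosome. Rpl41, Rps13 and Rps27 are placed on chromosomes 14, 8 and 9, where RefSeq has them on 10, 7 and 3. Ribosomal protein genes have many processed copies, and how reads that match several places were counted is not given in the sources used here, so the order of levels among these genes is uncertain.

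The starts of a few genes show the features the family shares and where its copies differ. Promoter windows from RefSeq (GRCm38.p6) were found for 58 of the 76 symbols that name a protein of the ribosome or Rps4l. Of their 70 windows, 26 (37.1%) held a C followed by at least 4 C or T within 5 bases of the annotated start, against 18.3% of all 32851 windows. The lines below run from 30 bases before the start through the first 15 transcribed bases, with that run in capitals from the C nearest the annotated start: first the TOP genes Rps6, Rpl35, Rpl38, Rplp2, Rpl15 and Rpl27a, then 3 parent and copy pairs.
Rps6 (chr4:86857353-86857397, minus strand): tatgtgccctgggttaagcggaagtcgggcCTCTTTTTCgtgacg
Rpl35 (chr2:39005117-39005161, minus strand): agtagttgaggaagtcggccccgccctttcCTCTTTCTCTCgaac
Rpl38 (chr11:114668550-114668594, plus strand): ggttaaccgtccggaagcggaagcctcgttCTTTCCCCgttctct
Rplp2 (chr7:141447621-141447665, plus strand): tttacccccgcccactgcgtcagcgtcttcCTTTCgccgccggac
Rpl15 (chr14:18270972-18271016, minus strand): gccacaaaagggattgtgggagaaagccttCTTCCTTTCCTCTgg
Rpl27a (chr7:109519165-109519209, plus strand): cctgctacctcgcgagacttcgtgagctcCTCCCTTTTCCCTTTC
Rpl39 (chrX:37085208-37085252, minus strand): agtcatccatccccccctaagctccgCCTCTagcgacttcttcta
Rpl39l (chr16:10170198-10170242, plus strand): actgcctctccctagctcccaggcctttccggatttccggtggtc
Rps27 (chr3:90213634-90213678, minus strand): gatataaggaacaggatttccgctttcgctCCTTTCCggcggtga
Rps27l (chr9:66946056-66946100, plus strand): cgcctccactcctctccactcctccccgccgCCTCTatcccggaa
Rpl22 (chr4:152324406-152324450, plus strand): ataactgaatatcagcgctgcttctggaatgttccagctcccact
Rpl22l1 (chr3:28805478-28805522, plus strand): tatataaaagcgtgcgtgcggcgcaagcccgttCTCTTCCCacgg
The capitals begin on the first transcribed base in Rps6, Rpl35, Rpl38, Rplp2, Rpl15 and Rps27, and in several of these, pyrimidines also stand just before it. In Rpl39l and in the Rpl22 window shown no such run begins within 5 bases of the start. A stretch of pyrimidines that begins further upstream ends on the base before the start of Rpl39l, so its lack of capitals follows from where the rule looks.

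Of 4 other promoter words, 3 were more frequent at these genes than among all windows of the same length. CCGGAAG, a core bound by GABP and other ETS factors, was present on either strand in 34.3% of the 70 windows and 8.86% of all windows. AAGATGG, the core of the YY1 site, was in 15.7% and 6.34%, and GGGCGG, the Sp1 box, in 60% and 35.7%. TATAAA within the 50 bases before the start was in 1 of the 70 (1.43%) and in 2.63% of all windows, too few to compare. These are matches of letters in fixed windows, not bound sites.

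In wild-type ES3 cells the ribosomal protein genes were among the highest transcripts of the cell. Their median was 203 RPKM, 70 of the 78 lay in the top 10% of all measured symbols, and together they held 10.5% of all summed RPKM. In the MEF table, which was normalized separately, their median was 123 RPKM in wild type, 63 lay in the top 10%, and they held 5.97% of the sum. Across the 77 symbols measured in both, the wild-type levels of the 2 tables had a Spearman rho of 0.87, over genes of 1 library each.

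Levels within the family spanned a wide range. Rpl41, a very short protein of the large subunit, was first in all 4 libraries, with 2516 and 2313 RPKM in wild-type and knockout ES3 cells, and 1948 and 3852 RPKM in wild-type and knockout MEFs. Among the highest in ES3 cells were also Rpl8, near the peptidyl transferase centre (2106 and 1596 RPKM), and the 3 stalk genes. Among the highest in MEFs were Rpl13a (1116 and 1889 RPKM), which also has roles outside the ribosome, and Rps9 (787 and 1366 RPKM). At the low end stood Rpl3l, with 0.217 and 0.106 RPKM in ES3 cells and 0.0691 RPKM in wild-type MEFs, and it was listed at 0 in knockout MEFs. Rpl17, at the rim of the peptide exit tunnel, had 30.4 and 34.0 RPKM in ES3 cells, and Rpl7a, another large-subunit protein, 21.4 and 34.1 RPKM in MEFs.

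**Figure D1:**
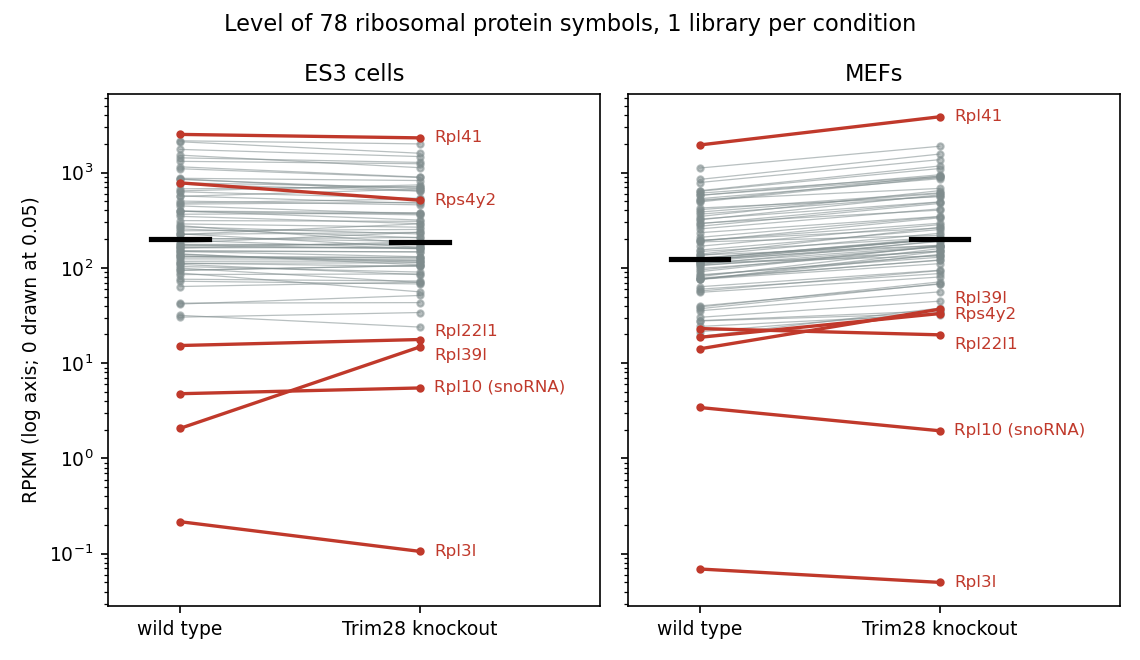
Level in RPKM (log axis) of the 78 symbols in wild-type and knockout libraries of ES3 cells (left) and MEFs (right), 1 line per symbol, with black bars at the median. The median is 203 and 189 RPKM in ES3 cells and 123 and 199.6 RPKM in MEFs, Rpl39l climbs from 2.06 to 14.8 and from 14.1 to 36.9 RPKM, and the red lines mark symbols named in the text.

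In knockout ES3 cells the ribosomal protein genes stayed close to their wild-type levels, with a slight lean to lower values. Ratios here and below are log2((knockout + 1)/(wild type + 1)) of RPKM, a scale that understates the change of low genes. The median ratio was -0.09, against 0.08 for all 12045 measured genes, and the middle 50% of the family lay between -0.26 and 0.05. Of the 77 measured, 26 were above 0 and 51 below, while 55.4% of all genes were above 0 and 44.6% below. Only Rpl39l was at least 2-fold higher (12.5% of all genes were) and none was 2-fold lower (3.17% of all genes were).

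Abundant genes as a whole shared this lean. Of the 2767 genes at 20 RPKM or more in both ES3 libraries, 64.9% were below 0, with a median of -0.15. Of the 74 ribosomal protein symbols in that range, 51 (68.9%) were below 0, with a median of -0.11. Rescaling each library to the same sum gave a family median of -0.04 and 33 symbols above 0, and centring on the median of all genes gave -0.17 and 14 symbols above 0.

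The lowest ES3 ratios came from both subunits. Rpl7l1, a paralog of Rpl7, stood at 88.3 and 56.0 RPKM in wild-type and knockout cells (-0.65). Rps2, at the entrance of the mRNA channel, stood at 277 and 180.5 RPKM (-0.62). Rps4y2 stood at 781 and 512 RPKM (-0.61). These 3 were the only symbols of 77 at least 1.5-fold lower, where 10.8% of all genes were that much lower. Rpl22, a protein on the outer face of the large subunit, was at 99.5 and 70.1 RPKM (-0.50), Rpl13 at 228 and 164.5 RPKM (-0.47), and the stalk base Rplp0 at 1525 and 1126 RPKM (-0.44).

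Apart from Rpl39l, the highest ES3 ratios were small, and the following were among them. Rps27l, a p53-induced paralog of Rps27, had a wild-type level of 224 RPKM and a knockout level of 290 RPKM (0.37), and Rps27 itself stood at 183 and 236 RPKM (0.36). Rpl15 stood at 41.7 and 51.3 RPKM (0.29), and the X-linked Rpl36a at 162 and 187 RPKM (0.21). Beside Rpl39l, no symbol was 1.5-fold higher, where 24% of all genes were.

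In knockout MEFs nearly the whole family was higher, and by similar amounts. The median ratio was 0.70, a 1.62-fold difference, against 0.00 for all 10827 measured genes. The middle 50% lay between 0.56 and 0.80. Of 77 symbols, 75 were above 0 (50.3% of all genes were). At least 1.5-fold higher were 56 of them (11.7% of all genes were), but only Rpl39l passed 2-fold (0.979% of all genes did), and none was 2-fold lower (4.84%). The 2 below 0 (49.7% of all genes were) were the Snora70 row under the symbol Rpl10 (3.42 and 1.95 RPKM in wild type and knockout, -0.58) and Rpl22l1 (23.1 and 19.8 RPKM, -0.21).

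Both subunits took part in the MEF difference. Without Rps19bp1, Rps4y2 and the Snora70 row, all 29 small-subunit symbols were above 0, with a median of 0.70 and a range of 0.39 to 0.97. Of the 45 measured large-subunit and stalk symbols, 44 were above 0, with a median of 0.67. Over the same symbols, the summed level of the large subunit and stalk over that of the small subunit was 1.52 in wild-type and 1.57 in knockout MEFs, and 1.599 and 1.503 in ES3 cells. With those 3 rows kept, the ratio of sums was 1.51 and 1.56 in MEFs and 1.502 and 1.44 in ES3 cells. The family's share of summed RPKM was 5.97% in wild-type and 8.32% in knockout MEFs, and 10.5% and 9.76% in ES3 cells.

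After Rpl39l, the highest MEF ratios belonged mostly to standard ribosomal proteins. Rpl41 had 1948 and 3852 RPKM (0.98). Rpl38, which is needed for translation of a subset of Hox messages, stood at 80.9 and 159 RPKM (0.97), and Rps2 at 75.6 and 149 RPKM (0.97). Rps19bp1, the binding protein of Rps19, stood at 19.1 and 37.8 RPKM (0.95), and Rpl37a at 139 and 266 RPKM (0.93). The lowest above 0 were Rpl23, at the interface of the subunits (187 and 219 RPKM, 0.23), Rpl5 (113 and 134 RPKM, 0.24), Rpl7l1 (27.7 and 33.2 RPKM, 0.25), Rpl15 (27.9 and 35.4 RPKM, 0.33) and Rpl36a (0.33).

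The MEF ratios of all genes moved with gene length on the genome, and the ribosomal protein genes are short. The median span of the 77 symbols was 3080 bp, against 21941 bp for all measured MEF genes. Rpl41, Rps13 and Rps27 entered with the deposited spans of 388, 499 and 255 bp, on chromosomes where RefSeq does not place them. Their spans are therefore uncertain, and they stayed in the values below. Over all MEF genes, span and ratio had a rho of -0.54, and in ES3 cells 0.07. The median MEF ratio was 0.54 in the shortest of 20 equal bins of span and -0.47 in the longest. After centring within these bins, the family median was 0.25, 67 of 77 symbols were above the median of their bin (49.9% of all genes were), and 3 were 1.5-fold above it (7.17% of all genes were). In the 4 shortest bins, up to 7237 bp, 71 ribosomal protein symbols had a median of 0.70 and the 2095 other genes 0.38. The part of gene span in the MEF difference was not otherwise tested.

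Above 7237 bp lay 6 symbols, of which 4 were above the median of their bin and 2 below. Rpl11 (25164 bp as deposited) had a MEF ratio of 0.76 where its bin median was 0.02, Rpl24 (14448 bp) had 0.75 against 0.10, and Rpl13a (10674 bp) had 0.76 against 0.23. In the bin with a median of 0.28 lay Rpl22 (8330 bp, 0.54), Rpl5 (8504 bp, 0.24) and Rpl7l1 (7546 bp, 0.25). The library sums differ as well, at 309273 RPKM for wild-type MEFs against 370040 RPKM for knockout MEFs. Rescaling both to the same sum gave a median of -0.24 for all genes and 0.44 for the family, with 73 of 77 symbols above 0. Of the 2601 genes at 20 RPKM or more in both MEF libraries, the median was 0.27 and 22.9% were at least 1.5-fold higher. Of the 72 ribosomal protein symbols in that range, 73.6% were.

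**Figure D2:**
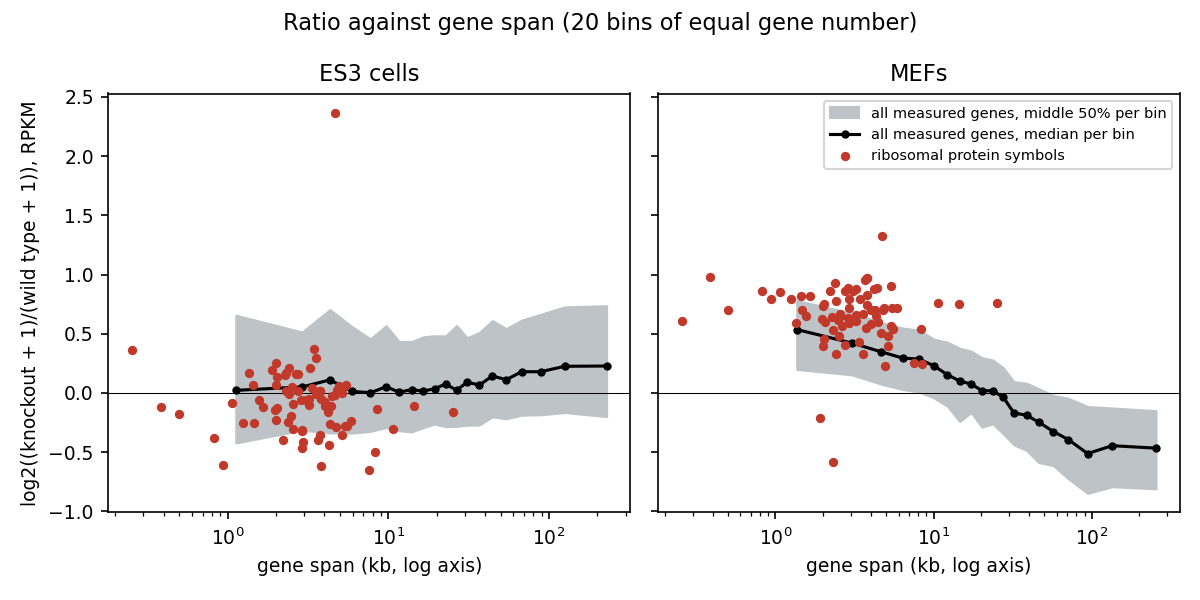
Ratio of knockout over wild type (log2, RPKM + 1) against gene span in kb (log axis) for ES3 cells (left) and MEFs (right). The black line and grey band give the median and middle 50% of all measured genes in 20 bins of span, and red points are the ribosomal protein symbols: in MEFs the line goes from 0.54 to -0.47 and 67 of 77 symbols lie above the median of their bin.

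Set side by side, 51 of the 77 symbols (66.2%) were below 0 in ES3 cells and above 0 in MEFs, as were 24.8% of the 9949 genes measured in both tables. Among the 1671 genes at 20 RPKM or more in all 4 libraries 46.5% were, and among the 72 ribosomal protein symbols in that range 68.1%. Above 0 in both were 24 symbols (26.3% of all genes), 2 were above 0 in ES3 cells and below 0 in MEFs (29.5% of all genes), and none was below 0 in both (19.4% of all genes). At least 1.25-fold lower in ES3 cells and 1.25-fold higher in MEFs were 12 symbols (15.6%), and 6.87% of all genes. The ratios of the 2 comparisons had a Spearman rho of -0.31 over the 77 symbols. Rps2 had the widest gap, with -0.62 in ES3 cells and 0.97 in MEFs. Without a replicate in either cell type, the difference between them was not tested.

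**Figure D3:**
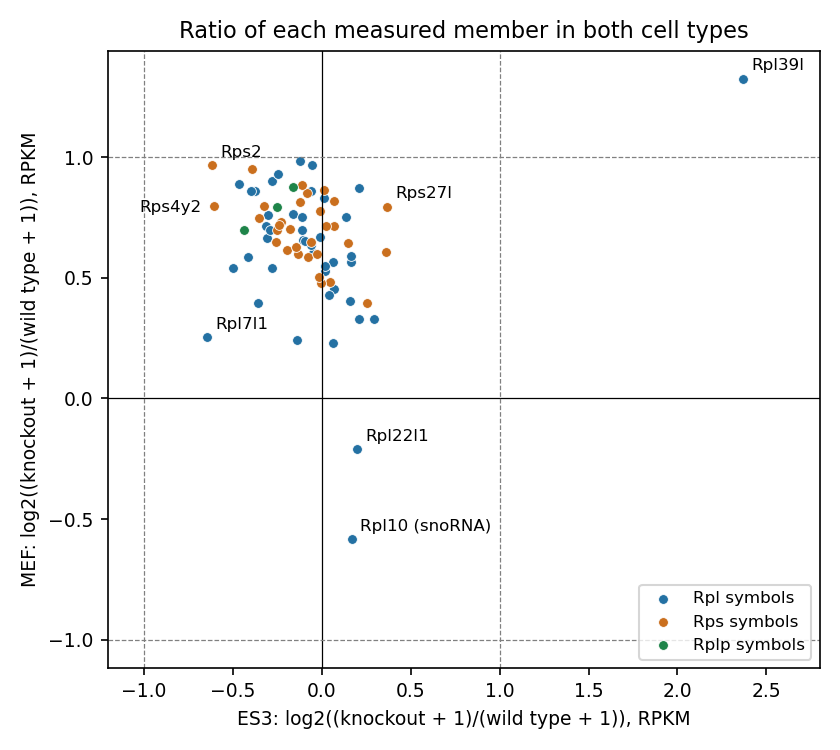
Ratio of knockout over wild type (log2, RPKM + 1) of the 77 measured symbols in ES3 cells (horizontal) and MEFs (vertical), with dashed lines at 2-fold. Most points form a cloud around -0.09 and 0.70, Rpl39l lies at 2.37 and 1.32, and Rpl22l1 and the snoRNA row called Rpl10 are the points below 0 in MEFs.

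The stalk proteins, which bring translation factors to the ribosome, had ratios within the range of the rest. Rplp1 stood at 1751 and 1473 RPKM in wild-type and knockout ES3 cells (-0.25), and at 636 and 1103 RPKM in MEFs (0.79). Rplp2 stood at 1429 and 1278 RPKM in ES3 cells (-0.16), and at 319 and 585 RPKM in MEFs (0.87). Rplp0 had 532 and 863 RPKM in MEFs (0.70). All 3 were thus lower in the ES3 knockout and higher in the MEF knockout library.

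Genes with roles beyond the ribosome did not share 1 pattern. Rpl5 and Rpl11 bind the 5S ribosomal RNA and, when free, hold back the p53 ligase MDM2. In ES3 cells Rpl5 stood at 174 and 158.5 RPKM (-0.14) and Rpl11 at 133 and 119 RPKM (-0.16). In MEFs Rpl11 stood at 135.5 and 231 RPKM (0.76), more than the 0.24 of Rpl5. Rps6, the target of S6 kinase, stood at 117 and 118 RPKM in ES3 cells (0.01) and at 75.7 and 138.5 RPKM in MEFs (0.86). Rpsa, which also serves as a laminin receptor, stood at 109 and 84.8 RPKM in ES3 cells (-0.35) and at 39.9 and 67.5 RPKM in MEFs (0.75). Rps27a, made as a fusion with ubiquitin, stood at 63.7 and 70.8 RPKM in ES3 cells (0.15) and at 35.5 and 56.0 RPKM in MEFs (0.64).

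The X-linked genes lay within the family's range. Rps4x stood at 313 and 308 RPKM in wild-type and knockout ES3 cells (-0.02), and at 194 and 294 RPKM in MEFs (0.60). Rpl39 stood at 395 and 378.5 RPKM in ES3 cells (-0.06), and at 366 and 568 RPKM in MEFs (0.63). The Rpl10 transcript under the symbol Rpl10l stood at 85.1 and 86.3 RPKM in ES3 cells (0.02), and at 55.3 and 80.2 RPKM in MEFs (0.53). Rpl36a had 136 and 172 RPKM in MEFs (0.33), the lowest of these 4 there.

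Rpl39l was the symbol that stood apart in both cell types. It encodes a copy of Rpl39, a small protein of the exit tunnel, and in mice it is best known from male germ cells. Its level was 2.06 RPKM in wild-type against 14.8 RPKM in knockout ES3 cells (2.37), and 14.1 and 36.9 RPKM in wild-type and knockout MEFs (1.32). It was thus the only measured symbol at least 2-fold higher in either knockout, and its parent Rpl39 was not (-0.06 and 0.63). Even in the ES3 knockout it held far less RPKM than Rpl39 (14.8 against 378.5). Its ES3 ratio was 2.79 with a pseudocount of 0.1 RPKM and 1.49 with 5 RPKM, and its MEF ratio was 0.98 after centring within bins of span, just under 2-fold.

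The 250 bases before the start of Rpl39l (GRCm38.p6, chr16:10169978-10170227, plus strand) are shown because this is the member next to an H3K9me3 region that was called in wild type only. Capitals mark CCGGAAG, which occurs 2 times.
Rpl39l upstream: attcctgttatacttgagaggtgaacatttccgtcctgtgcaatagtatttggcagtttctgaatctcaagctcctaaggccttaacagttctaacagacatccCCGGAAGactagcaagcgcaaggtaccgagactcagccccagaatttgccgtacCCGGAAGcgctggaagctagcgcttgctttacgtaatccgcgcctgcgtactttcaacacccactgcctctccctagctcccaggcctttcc
Its base composition was 51.6% G or C with 12 CG pairs, beside 58.8% and 12 CG pairs in the same window of Rpl39.

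The other paralogs did not all go the same way. Rpl22l1, the copy of Rpl22, stood at 15.3 and 17.7 RPKM in ES3 cells (0.20), where Rpl22 was lower (-0.50). In MEFs the order was the other way round, with -0.21 for Rpl22l1 and 0.54 for Rpl22 (59.7 and 87.2 RPKM). Rps27l (273 and 474 RPKM in MEFs, 0.79) and Rps27 (84.5 and 129 RPKM, 0.61) were above 0 in both cell types. Rpl36al stood at 94.1 and 106 RPKM in ES3 cells (0.16) and at 112 and 169 RPKM in MEFs (0.59). Rpl7 itself stood at 365 and 375.5 RPKM in ES3 cells (0.04) and at 194 and 262 RPKM in MEFs (0.43), against the lower ES3 ratio of Rpl7l1. The MEF ratio of Rpl7l1 was -0.03 after centring within bins of span. The transcript that RefSeq gives to the true Rpl10l, NM_001162933, stood at 9.14 and 6.66 RPKM in ES3 cells and at 0.0174 and 0.0337 RPKM in MEFs. The parent of Rpl3l, Rpl3, stood at 139 and 114 RPKM in ES3 cells (-0.28) and at 75.8 and 111 RPKM in MEFs (0.54).

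Rps4y2, the transcript of Rps4l, was the symbol whose place in the family differed most between the cell types. It stood at 781 and 512 RPKM in wild-type and knockout ES3 cells and at 18.7 and 33.2 RPKM in MEFs. It held 2.33% of the family's RPKM in wild-type ES3 cells, where it ranked 13 of 78, and 0.101% in wild-type MEFs, where it ranked 75. Rps4x held 0.934% and 1.05%. The 2 tables were normalized separately, so these are shares within each.

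Genes with and without a pyrimidine run by the rule above had similar median ratios. The 24 genes with a pyrimidine run at a start had a median ratio of -0.06 in ES3 cells and 0.68 in MEFs. The 34 with a window but no run by this rule, among them the unmeasured Rpl3l, had -0.13 and 0.68. The 18 with no window in the table had -0.04 and 0.67. A run that begins further upstream counts as none, so the 34 may hold TOP genes. The medians therefore do not compare TOP messages with others. RNA levels do not report translation, the step that the TOP motif is known to control.

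Some ribosomal proteins fall outside the symbol rule. Fau, made as a fusion that yields Rps30, stood at 206 and 174 RPKM in ES3 cells (-0.25) and at 157 and 302 RPKM in MEFs (0.94). Taking the genes by RefSeq transcript instead of by symbol, without the paralogs, gave 79 genes. Their medians were -0.11 in ES3 cells, with 22 above 0, and 0.67 in MEFs, with 79 above 0 and none at 2-fold.

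The mitochondrial ribosomal proteins, a separate family of nuclear genes, were also lower in the ES3 and higher in the MEF knockout library. Of 76, 57 were below 0 in ES3 cells, with a median of -0.22. Below 0 there were 44.6% of all genes, and 64.9% of those at 20 RPKM or more in both libraries. In MEFs 71 were above 0 (50.3% of all genes were), with a median of 0.55. At least 1.5-fold higher there were 33 (11.7% of all genes were). After centring within bins of span their MEF median was 0.29, beside 0.25 for the cytosolic family. Mrpl18 had the lowest ES3 ratio (100.0 and 52.8 RPKM, -0.91) and Mrps24 the highest MEF ratio (22.8 and 45.9 RPKM, 0.98).

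Genes that build ribosomes had a lower median ratio in ES3 cells than the proteins they assemble. All 34 ribosome assembly genes were below 0, with a median of -0.38. Below 0 were 44.6% of all genes, and 64.9% of those at 20 RPKM or more in both ES3 libraries. Of the 34, 9 were at least 1.5-fold lower (10.8% of all genes were) and none 2-fold lower (3.17%). After rescaling to equal sums, 33 of the 34 were below 0. Gar1, of the box H/ACA particle that modifies ribosomal RNA, stood at 87.0 and 48.1 RPKM (-0.84) and Rrp9, of the U3 particle, at 106 and 58.7 RPKM (-0.84). In MEFs 22 of the 34 were above 0 (50.3% of all genes were), with a median of 0.24 that became -0.01 after rescaling. Nop16, a nucleolar protein, was the highest there (24.1 and 44.6 RPKM, 0.86).

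RNA polymerase I and its factors, which transcribe ribosomal RNA, had a median of -0.20 in ES3 cells. Of 15, 12 were below 0 (44.6% of all genes were) and 4 at least 1.5-fold lower (10.8%). The subunit Polr1b stood at 59.5 and 35.5 RPKM (-0.73) and the factor Ubtf at 37.2 and 22.3 RPKM (-0.71). In MEFs their median was 0.09, and -0.16 after rescaling. The 10 measured hosts of snoRNAs had a median of -0.63 in ES3 cells. All 10 were below 0 there, and 2 were at least 2-fold lower (3.17% of all genes were). These 2 were Gas5 (110 and 46.8 RPKM, -1.22), itself a noncoding TOP transcript, and Snhg6 (138 and 63.4 RPKM, -1.11). In MEFs the hosts had a median of 0.08 (-0.17 after rescaling) with none past 2-fold. Of the hosts, Ncl and Nop56 are also among the ribosome assembly genes, so these lists overlap.

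Regulators of ribosomal protein synthesis were mostly below 0 in both comparisons. In ES3 cells 16 of 20 were below 0 (44.6% of all genes were) with a median of -0.21, and none was 2-fold lower. Mycn, the MYC family member of early embryonic cells, stood at 87.9 and 50.9 RPKM (-0.78) and Eif4ebp1, a translational repressor under mTOR, at 391 and 239 RPKM (-0.71). In MEFs 13 of 19 were below 0 (49.7% of all genes were), also with a median of -0.21. Sp1 stood at 8.42 and 3.88 RPKM there (-0.95), Gabpa at 9.57 and 5.03 RPKM (-0.81) and Mtor at 7.35 and 3.80 RPKM (-0.80). The spans of these genes were 28855 to 109073 bp. After centring within bins of span, the MEF median of the 19 regulators was -0.23.

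Other messages of translation known to carry a TOP motif gave medians of -0.13 in ES3 cells and 0.24 in MEFs (-0.02 after rescaling), over 19 genes. Vim, the intermediate filament gene counted among them and among the fibroblast markers, was an exception in ES3 cells (51.1 and 301 RPKM, 2.54), as was the elongation factor Eef1a1 (1267 and 1917 RPKM, 0.60). Npm1, a nucleolar chaperone also on the list of ribosomal stress and p53, was lowest in MEFs (145 and 87.4 RPKM, -0.72). Eef1b2 was highest (314 and 530.5 RPKM, 0.75). The 14 genes affected in Diamond-Blackfan anaemia, an inherited failure of red cell production, had medians of 0.01 in ES3 cells and 0.63 in MEFs (13 there). The exit tunnel rim genes had -0.01 and 0.60. Of 10 genes of ribosomal stress and p53, 4 were 2-fold higher or more in ES3 cells (12.5% of all genes were): Ccng1 (41.4 and 149.5 RPKM, 1.83), Cdkn1a (29.7 and 79.4 RPKM, 1.39), Mdm2 (53.9 and 115 RPKM, 1.09) and Zmat3 (13.7 and 29.1 RPKM, 1.03). The other 6 were within 2-fold, and 3 of the 10 were below 0: Mdm4, a partner of Mdm2 (26.2 and 12.9 RPKM, -0.97), Trp53 itself (155 and 114 RPKM, -0.44) and Bax, which promotes cell death (265 and 207 RPKM, -0.35). In MEFs none was 2-fold higher, and Mdm4 was lower (6.59 and 1.13 RPKM, -1.83).

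**Figure D4:**
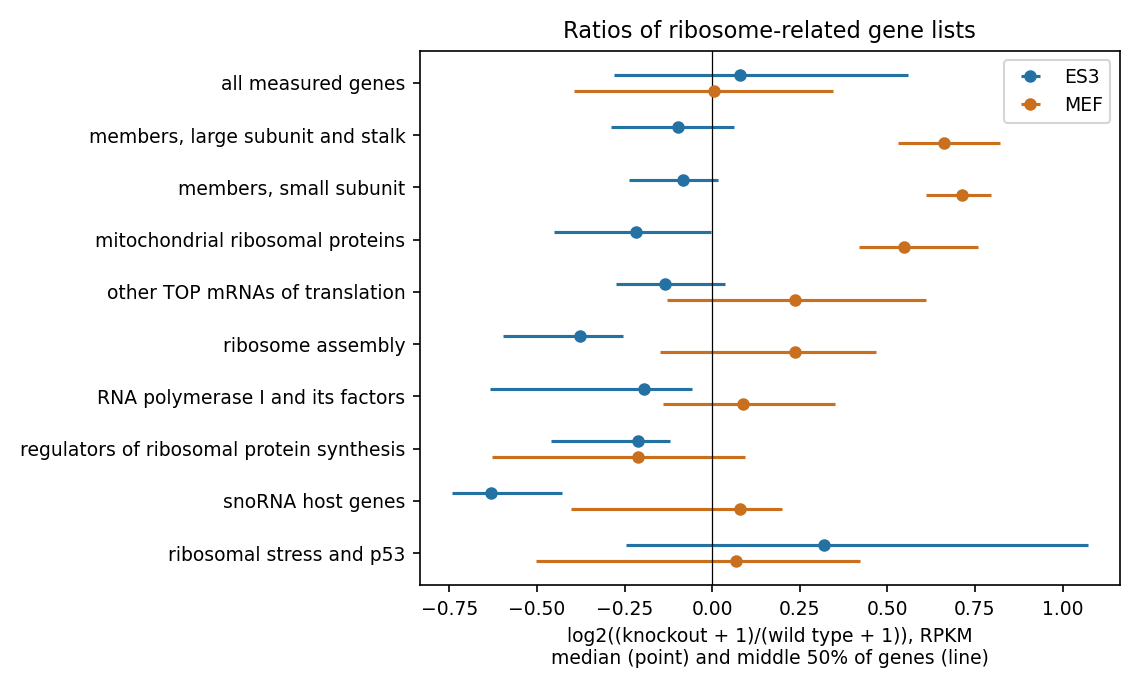
Median (point) and middle 50% (line) of the ratio of knockout over wild type (log2, RPKM + 1) for ribosome-related gene lists and all measured genes, in ES3 cells (blue) and MEFs (orange). In MEFs both subunits lie near 0.7 (0.66 and 0.71) and the mitochondrial ribosomal proteins at 0.55, while in ES3 cells ribosome assembly genes lie at -0.38 and snoRNA hosts at -0.63.

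The shares of ribosomal protein symbols with H3K9me3 regions or KAP1 peaks within 20 kb were set beside those of all genes in ES3 cells. The gaps between these shares rest on small counts, and not all held in other windows. Coordinates here are those of the files (mm9), and the 3 symbols placed on other chromosomes than in RefSeq were left out, which leaves 75. The 75 include Rps19bp1, which is no part of the ribosome, and the rows called Rpl10 and Rpl10l, which share a start. Within 20 kb of an H3K9me3 region found in wild type only were 9 starts (12%), where 17.2% of all genes had one. Within 20 kb of any wild-type region were 12 (16% against 24.3%), and of any knockout region 13 (17.3% against 24.3%). KAP1 peaks called in wild type over knockout lay within 20 kb of 5 starts (6.67% against 4.93%), and peaks called over input of 9 in wild type (12% against 6.93%) and 6 in the knockout (8% against 4.87%). Peaks called in knockout chromatin thus showed a gap in the same direction as those called in wild type. Within 50 kb, wild-type-only H3K9me3 regions were equally frequent (36% against 36.1%). Within 10 kb, KAP1 peaks called in wild type over knockout were less frequent (1.33% against 2.61%). Each list is 1 call per condition and several counts rest on few genes, so these counts are descriptions.

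Rpl39l was the only ribosomal protein gene with a wild-type-only H3K9me3 region within 1 kb of its start (1.33% of the 75, against 0.954% of all genes), and the only one that close to any wild-type region (2.45% of all genes). The region, chr16:10170494-10170995 in mm9, spans 502 bp and begins 175 bp downstream of the start at 10170319, inside the gene. The nearest H3K9me3 region in the knockout lay 10.9 kb away, at 10181187 to 10184300. A KAP1 peak called in wild type over knockout lay 16.9 kb from the start (10187252 to 10188209), with a deposited score of 218.64, and a peak over input 13.6 kb away had a score of 56.66. Of the 70 other measured genes with a wild-type-only region within 1 kb, 23 (32.9%) passed 2-fold upwards in knockout ES3 cells, with a median ratio of 0.62, where 12.5% of all measured genes did. A low gene counts as measured only through the library where it reached 1 RPKM, and of the 169 such genes the other 99 are not in this share, so it is a description.

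The other 8 symbols within 20 kb of such regions had ES3 ratios from -0.65 to 0.29. They include Rps19bp1 (5.95 kb, -0.39), which is no part of the ribosome. Rpl24 lay 2.37 kb from a wild-type-only region (205 and 190 RPKM, -0.11) and Rpl19 3.63 kb from one (162 and 164 RPKM, 0.01). Rps3 lay 8.90 kb away (-0.24) and Rpl7l1 9.12 kb away (-0.65). Over the 9 symbols within 20 kb the median ratio was -0.11, and over the 1830 other genes 0.14. KAP1 peaks over input lay within 1 kb of 2 starts in wild type (2.67% against 0.46% of all genes). These were Rpl27a, 294 bp from the start (152 and 147 RPKM, -0.05, score 50.43), and Rps29, 296 bp from it (347 and 291 RPKM, -0.25, score 92.66). The Rps29 peak was also called in wild type over knockout, with a score of 65.92, the only member peak of that list within 1 kb (1.33% against 0.32% of all genes). In the knockout 1 start, that of Rpl12, had a peak over input within 1 kb (951 bp, score 63.29, 1.33% against 0.415% of all genes). In the knockout, H3K9me3 regions lay within 1 kb of the starts of Rpl6 (861 bp, ES3 ratio -0.29) and Rps6 (946 bp, ES3 ratio 0.01), 2.67% of the 75 against 3.21% of all genes.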

How the data were processed

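RNA of 4 libraries was analysed, 1 per condition. The authors deposited RPKM values, 1 row per RefSeq transcript, in a table per cell type; each was normalized separately. Bowtie and mm9 are named in the submitters' processing notes; their versions, how reads were counted and what each RPKM was divided by are steps not given in the sources used here, so read depth is unknown. The ES table names its columns only by genotype, and they were read as ES3 because no other ES pair has a knockout label. The authors also deposited the ratio of their RPKM columns, not used further. H3K9me3 regions were deposited without a score; KAP1 peaks carry a score by the authors whose scale is not stated.

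A symbol with several transcripts is represented by the one of highest mean RPKM. Ratios are log2((knockout + 1)/(wild type + 1)); a gene was measured at 1 RPKM or more in 1 of the 2 libraries. A gene without signal in wild type is measured only through the knockout. Span is the deposited end minus start, plus 1. Starts were placed by strand and distances taken to the nearest base of a region. Named genes were, besides Trim28, the 6 highest and 6 lowest ratios and levels per table, paralogs with parents, the stalk, Rpsa, Rps6, Rpl5, Rpl11, X-linked members, Rps27a, members near regions, and the largest ratios of each list; Rpl4, Rpl6, Rpl35, Rpl36, Trp53, Bax, Fn1, Postn and the snoRNA rows fall outside it, having been picked with their values in view. Members and lists were chosen with earlier results of these data known. RefSeq names and promoters are of GRCm38.p6, used for names and sequences only. Alternatives were other pseudocounts, filters, scalings, thresholds, rows and windows; the identification by RefSeq transcript and the subunit values without Rps19bp1, Rps4y2 and the Snora70 row were chosen after seeing the data. Counting was tested on simulated ratios. Python 3.11.15, pandas 2.3.3 and numpy 2.4.6 were used. A few genes that the naming rule takes are not reported here. Rex1GFP, H3K27ac and input libraries were not analysed here.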

Additional observations from a re-analysis of the deposited data

Results flagged for a closer look

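The median ratio of the family lay close to 0 in ES3 cells (-0.09) and above 0 in MEFs (0.70), and 12 of its symbols lay on opposite sides of 0 by a set fold. With 1 library per condition, none of these differences was tested. The median log2 ratio was 0.79 higher in MEFs than in ES3 cells, and the family's share of summed RPKM changed by -0.77 percentage points in ES3 cells and by 2.35 percentage points in MEFs. The 12 symbols were at least 1.25-fold lower in the ES3 knockout and at least 1.25-fold higher in the MEF knockout, as were 6.87% of the 9949 genes measured in both tables. The MEF ratio exceeded the ES3 ratio by 1.58 for Rps2, 1.40 for Rps4y2, 1.35 for Rpl13, 1.34 for Rps19bp1 and 1.26 for Rpl8. The same gap was 1.24 for Rpl36, 1.13 for Rplp0, 1.12 for Rps9, 1.10 for Rpsa, 1.04 for Rpl22, 1.00 for Rpl12 and 0.75 for Rpl4. The MEF ratios vary with gene span and depend on how the library sums are scaled, as given above.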

How the results depend on the processing

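With 1 library per condition no spread exists, so an alternative shows only how the processing moves a value. No paired analysis was possible because each condition is 1 library and the labels carry no replicate numbers. No result changed sign where it was called. In ES3 cells, 14 of 77 symbols instead of 26 were above 0 after centring on the median of all genes. Symbols lower at the threshold were 2 of 98 with all transcript rows (both snoRNA rows) and 3 at 1.5-fold, and those higher were 0 without paralogs and 0 by RefSeq transcript. In MEFs the median of 0.70 became 0.25 after centring within bins of span and 0.44 after rescaling to equal sums. MEF symbols higher at the threshold were 0 within span bins, at 3-fold, without paralogs and by RefSeq transcript, 2 with all rows and 56 at 1.5-fold. Within span bins 1 symbol, the Snora70 row, was lower. Without the 20 highest other symbols, the family's share was 6.78% and 9.51% in wild-type and knockout MEFs. Starts near wild-type-only H3K9me3 numbered 1 within 1 kb and 27 within 50 kb (1.33% and 36%, against 0.954% and 36.1% of all genes). Near wild-type H3K9me3 they numbered 1, 7 and 31 within 1, 10 and 50 kb (1.33%, 9.33% and 41.3%, against 2.45%, 13.5% and 47.3%). Near knockout H3K9me3 they numbered 2, 5 and 26 (2.67%, 6.67% and 34.7%, against 3.21%, 14.1% and 46.6%). For KAP1 peaks in wild type over knockout they numbered 1, 1 and 10 (1.33%, 1.33% and 13.3%, against 0.32%, 2.61% and 12.2%). In wild type over input they numbered 2, 4 and 17 (2.67%, 5.33% and 22.7%, against 0.46%, 3.59% and 16.6%). In the knockout over input they numbered 1, 2 and 10 (1.33%, 2.67% and 13.3%, against 0.415%, 2.65% and 11.7%). Of the other values of these comparisons, 89 moved less than the tolerances set (0.1 on the log2 scale for a median, 1.1 times for a share, 1.5 times for a count).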

Other observations

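Small nucleolar RNAs hosted in ribosomal protein genes have rows of their own, some under the host's symbol. Snora65 stood at 35.9 and 17.7 RPKM in wild-type and knockout ES3 cells, and at 5.30 and 16.2 RPKM in MEFs. Snord33 stood at 28.2 and 11.4 RPKM in ES3 cells and at 3.14 and 5.70 RPKM in MEFs. Snord34, under the symbol Rpl13a, stood at 16.3 and 10.1 RPKM in ES3 cells and at 2.79 and 2.18 RPKM in MEFs. Snora52, under Rplp2, was listed at 1.48 and 0 RPKM in ES3 cells. These transcripts are far shorter than messages and depend on how the libraries kept short RNA, which is not given in the sources used here.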
